A study of Homo sapiens with 24 samples.

Results

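The genes described here are 33 genes of cholesterol and lipid synthesis, most of them known targets of the sterol regulatory element-binding proteins (SREBPs), chosen by name and read from a gene table of 38048 genes. All 33 were found, and all 33 were among the 16640 genes with enough counts to test. They were sorted by role into 8 genes of the mevalonate arm, 11 of the sterol arm, 6 regulators of SREBP or sterol transport and 8 genes of fatty acid and lipid synthesis. The cells were MV4-11, an acute myeloid leukaemia line, wild type for PRMT5 (PRMT5 +/+) in every group. There were 8 groups of 3 libraries. Cells received PRT220 (3 nM), an inhibitor of the arginine methyltransferase PRMT5, together with GSK-LSD1 (10 nM), an inhibitor of the histone demethylase LSD1; PRT220 alone; GSK-LSD1 alone; or the vehicle DMSO, each for 3 days. Another 4 groups were given MS023, which inhibits type I arginine methyltransferases, with or without the LSD1 inhibitor, or the compounds known by the code names MC4455 and MC4491, and doses and times for these are not given in the sources used here. The LSD1 inhibitor in the MS023 combination is labelled only LSD1 and was taken as GSK-LSD1. All libraries come from 1 cell line, and nothing states that the 3 libraries of a group were separate cultures, so the p-values measure the spread between these libraries, which may be technical.

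Cells make cholesterol from acetyl-CoA through mevalonate, the isoprenoid farnesyl diphosphate, squalene and lanosterol, and make fatty acids from the same precursor through malonyl-CoA. The transcription factors SREBP1 and SREBP2, encoded by SREBF1 and SREBF2, are held in the endoplasmic reticulum membrane with SCAP. When membrane sterols are low, SCAP carries them to the Golgi, where they are cut and released to the nucleus. INSIG1 and INSIG2 retain SCAP when sterols are plentiful, and INSIG1 is itself a target. SREBP2 is known mainly for sterol genes and SREBP1 mainly for fatty acid genes.

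Libraries held 32495446 to 61090593 estimated counts, and no pair of libraries within a group held identical values. Levels are given as CPM, each count relative to its library's total, after TMM scaling between libraries. The myeloid genes PTPRC, CD33, SPI1, FLT3, CEBPA and MPO summed to 1068 to 1430.1 CPM before scaling across the 24 libraries, and 6 markers of other cell types summed to 1.7 to 3.8 CPM. FLT3 was the largest part of the myeloid sum, at 578 to 715 CPM, and MPO the smallest, at 5.9 to 11.5 CPM. In 8 libraries RRP9, a nucleolar factor of ribosomal RNA processing outside the 33, was at 0.677 to 1.73 CPM, against 29.1 to 36.2 CPM in the other 16; the low ones were all 3 PRT220 libraries and 1 or 2 libraries of DMSO, PRT220+GSK-LSD1, MS023 and MS023+GSK-LSD1. Calls against DMSO that were lost when the fit held only one kind of library are named beside the counts, where each group kept more than 1 library.

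Promoter windows of RefSeq genes on GRCh38.p14, running from 250 bases before to 50 after each start, were available for 29 of the 33 genes. They were searched on both strands for TCACNCCAC, a loose form of the sterol regulatory element, for the strict element, which has C at the N and A in front, for the E-box CACGTG, for CCAAT, the letters of the NF-Y site, and for GGGCGG, the letters of a GC box. Each strict element is also a loose one. A gene with several windows was counted once if any window held the letters. CCAAT was found in 21 of 29 members (72.4%), against 39.7% of the 27305 genes with a window. It stood in 14 of 16 sterol genes and in 4 of 7 fatty acid genes. GGGCGG was found in 28 of 29 (96.6%), against 48.3%, and CACGTG in 4 of 29 (13.8%), against 8.77%. The strict sterol element occurred in the window of SREBF2, the gene for SREBP2, and in no other member, against 0.0586% of all genes, and the looser form likewise in SREBF2 alone, against 1.39%. The 27305 genes include some with too few counts to test here, while all members were tested. The 29 members had 43 windows, and windows per gene were not matched between the sets. A match describes letters in a window and does not show binding. The part of 4 windows that lies upstream of the annotated gene is printed to show the sterol element of SREBF2 and the repeated CCAAT letters of 3 sterol genes, MVD, MSMO1 and NSDHL. Capitals mark the strict sterol element in SREBF2 and CCAAT in all 4, the last on either strand (ATTGG when it lies on the other). They lie at chr22:41832855-41833078, plus strand, at chr16:88663162-88663341, minus strand, at chr4:165327419-165327622, plus strand and at chrX:152830813-152830966, plus strand.
SREBF2: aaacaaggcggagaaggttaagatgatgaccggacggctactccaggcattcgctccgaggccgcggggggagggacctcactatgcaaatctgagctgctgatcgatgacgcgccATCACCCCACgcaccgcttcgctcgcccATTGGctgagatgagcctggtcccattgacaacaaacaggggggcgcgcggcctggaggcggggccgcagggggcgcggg
MVD: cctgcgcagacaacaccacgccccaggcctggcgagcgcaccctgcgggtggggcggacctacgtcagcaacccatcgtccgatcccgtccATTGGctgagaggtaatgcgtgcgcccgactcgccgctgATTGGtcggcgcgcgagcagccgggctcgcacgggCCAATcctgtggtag
MSMO1: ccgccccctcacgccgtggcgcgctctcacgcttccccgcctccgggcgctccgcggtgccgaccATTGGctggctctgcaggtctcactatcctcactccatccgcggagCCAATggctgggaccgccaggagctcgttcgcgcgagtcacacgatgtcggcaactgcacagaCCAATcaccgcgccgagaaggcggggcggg
NSDHL: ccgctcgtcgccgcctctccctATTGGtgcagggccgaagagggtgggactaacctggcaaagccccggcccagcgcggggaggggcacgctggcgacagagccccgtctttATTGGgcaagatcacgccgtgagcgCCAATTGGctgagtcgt
The stretch of MVD and that of MSMO1 hold 3 copies of CCAAT and that of NSDHL 4, of which the last pair overlaps.

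With PRT220+GSK-LSD1 nearly the whole pathway was lower than with DMSO. Of the 33 genes, 31 fell and 0 rose by edgeR's quasi-likelihood test at an adjusted p below 0.05, where 22.1% of all genes tested were called lower and 24.4% higher. The median log2 fold change of the 33 was -1.03, against 0.04 over all genes. All 8 mevalonate genes, all 11 sterol arm genes and all 8 fatty acid genes fell, with 4 of 6 regulators. The exceptions were SCAP and INSIG2.

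In the mevalonate arm the largest fall was in HMGCS1 (ENSG00000112972, chromosome 5, 43289395 to 43313512, minus strand), the synthase that makes the precursor of mevalonate. It stood at 233, 233 and 232 CPM in the PRT220+GSK-LSD1 libraries, against 635, 735 and 652 CPM with DMSO. The combination libraries were nearly equal, and all lay far below every DMSO library (log2 fold change -1.53, SE 0.08, edgeR adjusted p = 7.33e-12). MVD (ENSG00000167508, chromosome 16, 88651935 to 88663161, minus strand), which decarboxylates mevalonate diphosphate, had 50.9, 49.4 and 50.8 CPM with the combination, against 109.7, 131 and 141 CPM with DMSO. The groups did not overlap (log2 fold change -1.34, SE 0.10, edgeR adjusted p = 1.42e-09). ACAT2, the cytosolic thiolase that joins a pair of acetyl-CoA molecules at the start of the path, had 93.95, 98.1 and 96.5 CPM with the combination, against 219, 244 and 247 CPM with DMSO, again without overlap (log2 fold change -1.30, SE 0.08, edgeR adjusted p = 4.72e-11). IDI1, the isomerase of the isoprenoid units, changed by -1.17 on the log2 scale, FDPS, the farnesyl diphosphate synthase, by -1.13, and the kinase MVK by -0.88. The smallest falls in this arm were those of PMVK, the next kinase (-0.31), and of GGPS1 (-0.25), which makes the geranylgeranyl diphosphate used for protein prenylation rather than sterols. PMVK was not called when only libraries without the RRP9 loss were used (log2 fold change -0.25, edgeR adjusted p = 0.11).

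**Figure D1:**
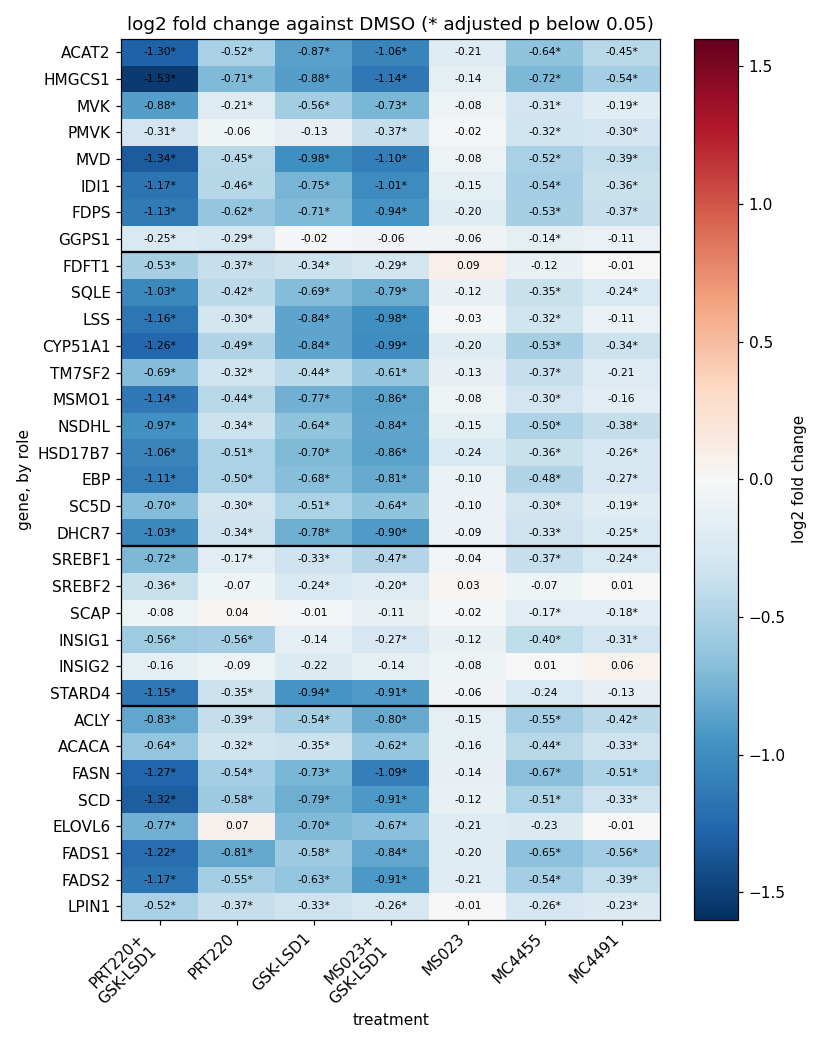
Log2 fold change of each of the 33 genes (rows, ordered as mevalonate arm, sterol arm, regulators and sterol transport, fatty acid and lipid genes, divided by lines) in each treatment against DMSO (columns); an asterisk marks an edgeR adjusted p below 0.05. The PRT220+GSK-LSD1 column is the darkest, with -1.53 for HMGCS1, and the MS023 column holds no asterisk.

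In the sterol arm the largest fall was in CYP51A1, the lanosterol demethylase, with 218, 227 and 229 CPM in the combination libraries, against 508, 564 and 538 CPM with DMSO. All combination values lay below all DMSO values (log2 fold change -1.26, SE 0.07, edgeR adjusted p = 1.06e-11). LSS (ENSG00000160285, chromosome 21, 46188141 to 46228824, minus strand), the cyclase that makes lanosterol, had 168, 179 and 173 CPM with the combination, against 349, 393 and 418 CPM with DMSO, with no overlap (log2 fold change -1.16, SE 0.08, edgeR adjusted p = 1.53e-10). MSMO1, the sterol methyl oxidase, had 78.6, 84.8 and 88.1 CPM with the combination, against 163, 201 and 189 CPM with DMSO, also with no overlap (log2 fold change -1.14, SE 0.09, edgeR adjusted p = 2.66e-09). EBP and DHCR7, the isomerase and the reductase of the late steps, changed by -1.11 and -1.03, HSD17B7 by -1.06, SQLE, which adds the epoxide to squalene, by -1.03, and the decarboxylating dehydrogenase NSDHL by -0.97. SC5D (-0.70), TM7SF2 (-0.69) and FDFT1 (-0.53), the squalene synthase at the entry of the arm, fell least. Readthrough models overlap CYP51A1 and GGPS1 on their own strand, and reads of HSD17B7 may be shared with near copies, so their counts are less certain. The libraries carry no strand, so where ACAT2 overlaps TCP1, MVK overlaps MMAB and SREBF1 overlaps RAI1 on the opposite strand, reads cannot be told apart.

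Among fatty acid and lipid genes SCD (ENSG00000099194, chromosome 10, 100347124 to 100364834, plus strand), the desaturase that makes monounsaturated fatty acids, had 719.6, 769.8 and 787 CPM in the combination libraries, against 1814, 2019.99 and 1856 CPM with DMSO. FASN (ENSG00000169710, chromosome 17, 82078333 to 82098332, minus strand), the fatty acid synthase, had 967, 911 and 956 CPM with the combination, against 2371, 2179 and 2274 CPM with DMSO. The combination libraries of both genes lay below every DMSO library (SCD log2 fold change -1.32, SE 0.07, edgeR adjusted p = 3.92e-12; FASN log2 fold change -1.27, SE 0.05, edgeR adjusted p = 1.52e-13). FADS1, the delta-5 desaturase of polyunsaturated fatty acids, had 258, 254 and 272 CPM with the combination, against 650.1, 626 and 551 CPM with DMSO (log2 fold change -1.22, SE 0.07, edgeR adjusted p = 7.31e-12). Its neighbour FADS2, the delta-6 desaturase, changed by -1.17. The gene models overlap on opposite strands by 29694 bases, which is the whole span of FADS1 with its introns. Where exons of both coincide, reads of unstranded libraries cannot be assigned by strand, and the extent of such exons was not measured. FEN1 overlaps the FADS2 model by 4265 bases on the same strand. ACLY, which supplies cytosolic acetyl-CoA, changed by -0.83, the elongase ELOVL6 by -0.77, ACACA, the acetyl-CoA carboxylase, by -0.64, and LPIN1, a phosphatidate phosphatase, by -0.52.

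The regulators moved less and less evenly. SREBF1 (ENSG00000072310, chromosome 17, 17810399 to 17837002, minus strand) had 136, 122 and 129 CPM in the combination libraries, against 206, 202 and 228 CPM with DMSO, with no overlap (log2 fold change -0.72, SE 0.05, edgeR adjusted p = 4.22e-10). SREBF2 (ENSG00000198911, chromosome 22, 41833079 to 41907308, plus strand), whose window holds the printed sterol element, had 392, 414 and 425 CPM with the combination, against 509, 529 and 545 CPM with DMSO. Its groups did not overlap either, but the fall was smaller (log2 fold change -0.36, SE 0.04, edgeR adjusted p = 6.56e-07). SCAP and INSIG2 did not pass the test: SCAP had a log2 fold change of -0.08 (95% interval -0.18 to 0.02) and INSIG2 of -0.16 (-0.38 to 0.06). INSIG2 stood at 23.3, 23.9 and 20.8 CPM with the combination, against 22.8, 26.2 and 26.99 CPM with DMSO, and the groups overlapped. INSIG1 (ENSG00000186480, chromosome 7, 155297776 to 155310235, plus strand) had 665, 701 and 686 CPM with the combination, against 899.8, 1081 and 1051 CPM with DMSO (log2 fold change -0.56, SE 0.08, edgeR adjusted p = 3.82e-06). STARD4 (ENSG00000164211, chromosome 5, 111496033 to 111512590, minus strand), a soluble protein that carries cholesterol between membranes, had 57.8, 58.6 and 61.2 CPM with the combination, against 114, 144 and 136 CPM with DMSO (log2 fold change -1.15, SE 0.11, edgeR adjusted p = 4.51e-08). For INSIG1 and STARD4 every combination library lay below every DMSO library.

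**Figure D2:**
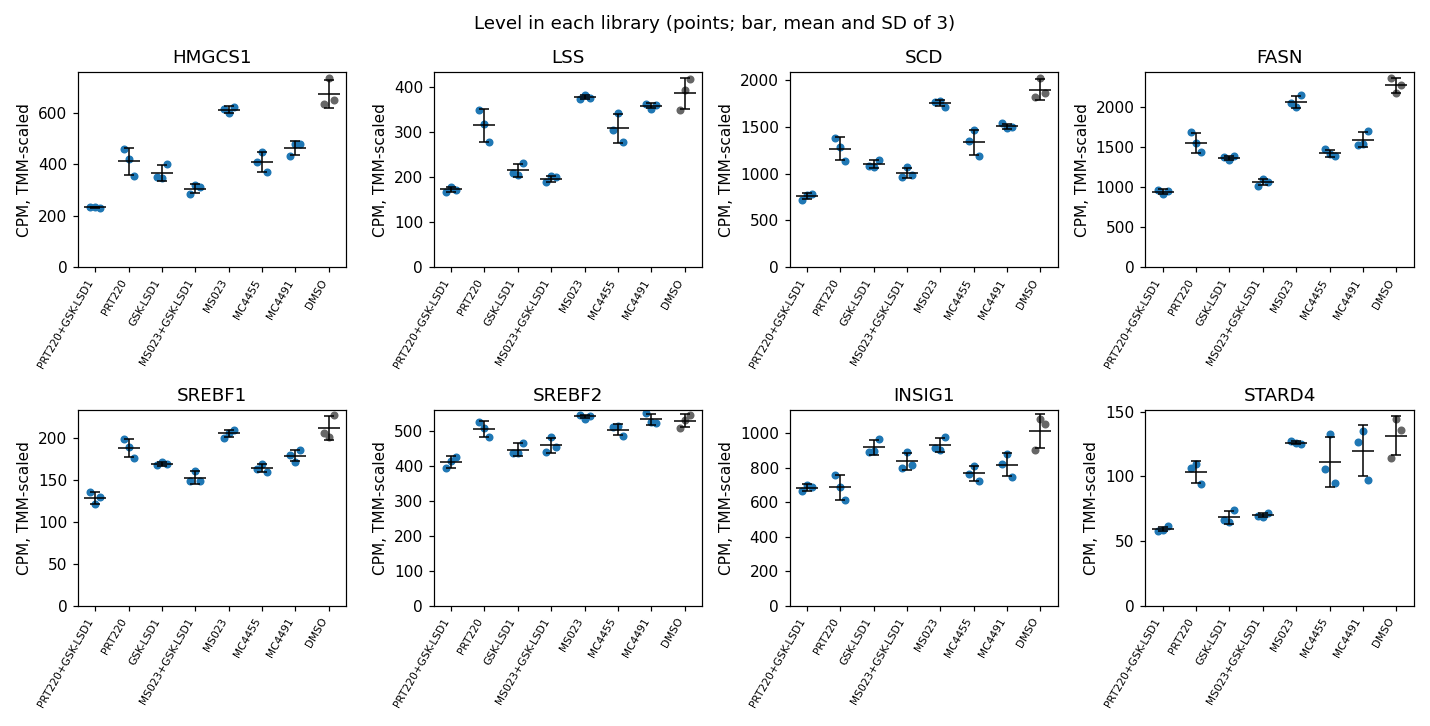
Scaled CPM of 8 genes in each library (points; line and bars, mean and SD of 3), with the 7 treatments to the left and DMSO at the right. HMGCS1, LSS, SCD, FASN and STARD4 are lowest in PRT220+GSK-LSD1, while INSIG1 is about as low with PRT220 (685 ± 73.8 CPM) as with the combination (684 ± 18.1 CPM).

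Sterol and fatty acid genes are set side by side here as a description, with no test between them. With PRT220+GSK-LSD1 the 19 genes of the mevalonate and sterol arms had a median log2 fold change of -1.06 and the 8 fatty acid and lipid genes one of -0.997. The mean log2 level relative to the DMSO mean was -0.97 ± 0.01 for sterol genes and -0.97 ± 0.04 for fatty acid genes in those libraries (SD, n = 3), against 0.00 ± 0.07 and 0.00 ± 0.04 with DMSO. With PRT220 these means were -0.40 ± 0.13 for sterol genes and -0.44 ± 0.11 for fatty acid genes, and with GSK-LSD1 -0.64 ± 0.08 and -0.58 ± 0.03. With MC4455 they were -0.40 ± 0.11 and -0.48 ± 0.04, and with MC4491 -0.27 ± 0.03 and -0.35 ± 0.04. With MS023+GSK-LSD1 they were -0.79 ± 0.07 and -0.76 ± 0.05, and with MS023 -0.11 ± 0.02 and -0.15 ± 0.01. The 2 means of a treatment differed by less than 0.1 each time. Medians of the log2 fold changes lay further apart with MC4455, at -0.36 for sterol genes and -0.53 for fatty acid genes.

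**Figure D3:**
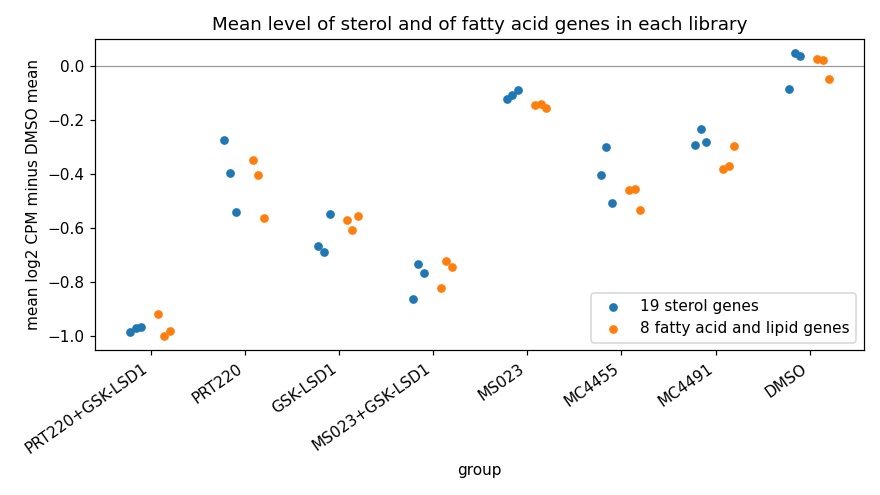
Mean log2 CPM of the 19 sterol genes and of the 8 fatty acid and lipid genes in each library, relative to the DMSO mean of the same genes, by group with DMSO at the right. Both sets lie near -1 with PRT220+GSK-LSD1 (-0.97 ± 0.01 for sterol and -0.97 ± 0.04 for fatty acid genes), and the PRT220 libraries are the most spread.

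PRT220 alone lowered most of the pathway by smaller amounts. Of 33 genes 28 fell and 0 rose (edgeR), where 11.1% of all genes were called lower and 13.8% higher. The falls covered 18 of 19 sterol genes, 7 of 8 fatty acid genes and 3 of 6 regulators, with a median of -0.37 over the 33. The largest were in FADS1 (log2 fold change -0.81, SE 0.07, edgeR adjusted p = 2.02e-08) and HMGCS1 (log2 fold change -0.71, SE 0.08, edgeR adjusted p = 2.08e-06). HMGCS1 had 459.9, 419 and 355 CPM in the PRT220 libraries, below every DMSO library. The genes not called were PMVK, SREBF2, SCAP, INSIG2 and ELOVL6. All PRT220 libraries were low in RRP9. Set against the 1 DMSO library that was also low, in a fit of the 8 low libraries, HMGCS1 had a log2 fold change of -0.68. That lone library gives no spread for DMSO, so whether the 28 calls hold among low libraries alone cannot be told. Of the 28, 23 stayed called without PRT220 replicate C, where MVK, LSS, TM7SF2, SREBF1 and STARD4 were lost, and 24 without DMSO replicate C (MVK, TM7SF2, SREBF1 and STARD4 lost) or in a fit of these 2 groups alone (MVK, LSS, TM7SF2 and SREBF1 lost).

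GSK-LSD1 alone also lowered 28 of 33 genes and raised 0 (edgeR), where 15% of all genes were called lower and 17.6% higher. These were 17 of 19 sterol genes, all 8 fatty acid genes and 3 of 6 regulators, with a median of -0.64. MVD changed by -0.98, STARD4 by -0.94 and HMGCS1 by -0.88. STARD4 had 66.3, 64.5 and 74.1 CPM in the GSK-LSD1 libraries, below every DMSO library. The genes not called were PMVK, GGPS1, SCAP, INSIG1 and INSIG2. INSIG1 had 889.9, 895 and 964 CPM with GSK-LSD1, overlapping the DMSO libraries (log2 fold change -0.14, 95% interval -0.30 to 0.02). No GSK-LSD1 library was low in RRP9.

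The single agents were compared with each other after their values against DMSO had been seen. By edgeR, 18 genes were higher and 3 lower with PRT220 than with GSK-LSD1, where 18.8% of all genes were called higher and 21% lower. INSIG1 was lower with PRT220, at 757, 689 and 609 CPM, against 889.9, 895 and 964 CPM with GSK-LSD1 (log2 fold change -0.42, SE 0.08, adjusted p = 0.00017). GGPS1 (-0.27) and FADS1 (-0.23) were lower as well. ELOVL6 was higher with PRT220, at 6.58, 6.82 and 5.63 CPM, against 4.02, 3.37 and 3.75 CPM with GSK-LSD1 (log2 fold change 0.77, SE 0.13, adjusted p = 5.85e-05). STARD4 (0.59), LSS (0.55), MVD (0.53) and DHCR7 (0.45) were also higher with PRT220. With a term for the low-RRP9 libraries 15 of the 21 differences stayed called, and MSMO1, SREBF1, SREBF2, ACLY, FASN and SCD did not.

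The combination was set against each of its agents. Against PRT220, 27 of 33 genes were lower with PRT220+GSK-LSD1 and 0 higher (edgeR; 18.8% of all genes lower, 19.4% higher), with a median of -0.60. Only replicate C of the combination was low in RRP9, so no calls within the low-RRP9 libraries are given. The largest differences were in MVD (-0.89) and LSS (-0.86). INSIG1 was not called (log2 fold change -0.00249, 95% interval -0.16 to 0.16). Against GSK-LSD1, 25 genes were lower and 0 higher (8.34% of all genes lower, 7.01% higher), with a median of -0.33. Here HMGCS1 (-0.65) and FADS1 (-0.64) differed most, INSIG1 was lower (-0.42), and ELOVL6 (-0.07, 95% interval -0.34 to 0.20) was not called. Of the 25, 21 stayed called within the libraries not low in RRP9 (MVD, HSD17B7, DHCR7 and LPIN1 lost), and 20 without GSK-LSD1 replicate C (LSS lost as well). DHCR7 (-0.25, edgeR adjusted p = 0.0487) was lost under every alternative except DESeq2's own test and the fit of these 2 groups alone.

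Whether the combination departed from the sum of the log2 effects of its agents was tested as an interaction. No gene of the 33 was called in either direction by edgeR, where 0.439% of all genes were called lower and 0.102% higher. DESeq2 called 0 as well. At an unadjusted p below 0.05 edgeR gave 1 lower and 0 higher, with no share of all genes at that rule given here. That gene was SREBF1, at -0.22 (95% interval -0.37 to -0.07, edgeR adjusted p = 0.243). The median interaction was 0.07, 26 of 33 estimates were above 0, and 32 of 33 intervals spanned 0. For HMGCS1 it was 0.06 (-0.19 to 0.30) and for FASN 0.01 (-0.15 to 0.16). The bounds over all 33 ran from -0.52 to 0.48.

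**Figure D4:**
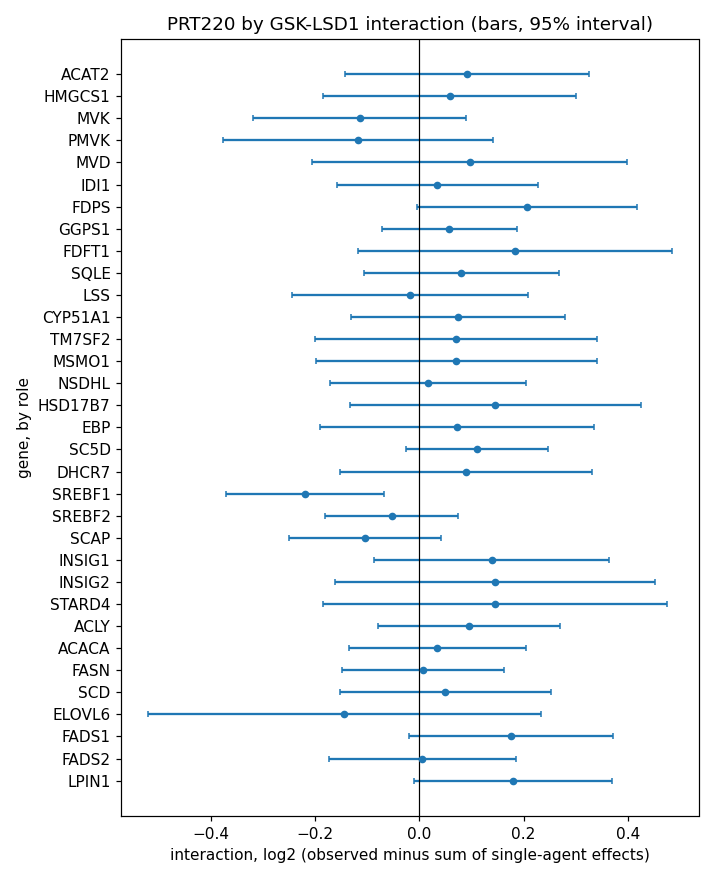
Interaction of PRT220 and GSK-LSD1 for each of the 33 genes on the log2 scale (points, estimates; bars, 95% intervals without adjustment for the number of genes). Values below 0 mean a larger fall than the sum of the single-agent effects; SREBF1 (-0.22) is the only gene whose interval lies to one side of 0.

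With MS023 alone edgeR called no gene of the 33 in either direction, where 1.36% of all genes were called lower and 0.889% higher. At an unadjusted p below 0.05, a looser rule than that of these shares, there were 12 lower and 0 higher. The share of all genes at the looser rule is not given here. DESeq2 called FADS1 and FADS2 lower, and its share of all genes is not given here either. The median was -0.12, and in 16 of 33 genes every MS023 library lay below every DMSO library, against 9.02% of all genes. FADS1 had 541, 539 and 512 CPM with MS023, against 650.1, 626 and 551 CPM with DMSO, without overlap (log2 fold change -0.20, 95% interval -0.34 to -0.06, edgeR adjusted p = 0.136). With MS023+GSK-LSD1 30 genes fell and 0 rose (23.3% of all genes lower, 25.1% higher), with a median of -0.81. HMGCS1 had 286, 319.5 and 312 CPM and FASN 1023, 1107 and 1067 CPM in those libraries, below every DMSO library. Of the 30, 29 stayed called within the libraries not low in RRP9 (FDFT1 lost). Each of these groups had 1 low-RRP9 library, so no calls within those are given. Against MS023, 29 genes were lower with the combination and 0 higher (20% of all genes in each direction). The combination had 1 low-RRP9 library and MS023 had 1 that was not low, so no calls within either kind are given. Against GSK-LSD1, 9 were lower and 0 higher (7.5% of all genes lower, 3.37% higher). The 9 were FASN (-0.36), FADS2, ACACA, IDI1, ACLY, HMGCS1, FADS1, FDPS and NSDHL, of which 5 are fatty acid genes. This count was 3 to 7 when any 1 library was left out; FASN was 1023, 1107 and 1067 CPM, against 1379, 1341 and 1392 CPM with GSK-LSD1, without overlap. The interaction called 0 members and 0% of all genes (DESeq2, 0 members), with a median of -0.03. Unadjusted p-values below 0.05 gave 1 lower and 0 higher, again with no share of all genes given.

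MC4455 lowered 28 of 33 genes and MC4491 24, and neither raised any (edgeR). Of all genes, 19.2% were called lower and 18.5% higher with MC4455, and 15.2% lower and 15.5% higher with MC4491. The medians were -0.37 with MC4455 and -0.26 with MC4491. HMGCS1 had 410.2, 448 and 369.6 CPM with MC4455 and 433, 480.2 and 478 CPM with MC4491, all below the DMSO libraries. FASN fell by 0.67 on the log2 scale with MC4455 and by 0.51 with MC4491. INSIG1 was called with both (-0.40 and -0.31), as was SCAP (-0.17 and -0.18). SCAP was lost with MC4455 in a fit of MC4455 and DMSO alone and without MC4455 replicate B. SREBF2, INSIG2, STARD4, FDFT1 and ELOVL6 were not called with either. LSS was 363, 352 and 361 CPM with MC4491, within the range of DMSO (log2 fold change -0.11, 95% interval -0.27 to 0.05), and with MC4455 it changed by -0.32. Doses are not given in the sources used here, so the compounds are set side by side and not compared. Against the DMSO libraries not low in RRP9, 26 of the 28 genes stayed called with MC4455 (PMVK and MSMO1 lost) and 21 of the 24 with MC4491 (MVK, PMVK and HSD17B7 lost). When any 1 library was left out, 20 or 21 of the 24 stayed called with MC4491. MVK was lost each time, and PMVK, HSD17B7, EBP or DHCR7 in some of these fits. With MC4455 26 to 28 of the 28 stayed called, with PMVK, GGPS1, MSMO1 or SCAP lost in some.

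Other genes of the pathway came from lists beside the 33. Of 15 other sterol genes tested, 9 fell and 3 rose with PRT220+GSK-LSD1 (edgeR), where 22.1% of all genes were called lower and 24.4% higher. ERG28, a scaffold of the sterol demethylation complex, changed by -0.98 and the acetyl-CoA synthetase ACSS2 by -0.87, while SOAT1, which esterifies cholesterol for storage, rose by 0.65. SOAT1 was higher with GSK-LSD1 (0.76) and not called with PRT220 (-0.09). Of 22 other fatty acid and glycerolipid genes, 12 fell and 4 rose, among them the acyltransferase DGAT2 (-0.84) and the acyl-CoA synthetase ACSL3 (-0.67). Of 6 genes for liver X receptors, which sense oxysterols, and their targets, 3 fell, including the cholesterol exporter ABCA1 (-0.94), and 1 rose.

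Markers of monocyte maturation were read in the same comparisons. With PRT220+GSK-LSD1 6 of 8 rose and 1 fell (24.4% of all genes higher, 22.1% lower). ITGAM changed by 3.91 and CYBB by 3.56 on the log2 scale. Before scaling, ITGAM ran from 2.1 to 50.2 CPM and CYBB from 2.32 to 45.3 CPM over all libraries, so both were low in some. CD14 was at 0.55 CPM or less in every library. The summed level of the 8 was 2417 to 2544 CPM, against 1121 to 1138 CPM with DMSO. It was 2746 to 2853 CPM with GSK-LSD1, 2206 to 2425 CPM with MS023+GSK-LSD1, 1300.3 to 1409 CPM with PRT220, 1316 to 1448 CPM with MC4455, 1252 to 1375 CPM with MC4491 and 1098 to 1174 CPM with MS023. LYZ, the gene for lysozyme, made up most of these sums, at 891 to 2482 CPM over all libraries. All 5 readouts of MYC and the cell cycle fell with PRT220+GSK-LSD1, MYC by 0.55 and MCM2 by 0.57 on the log2 scale, where 22.1% of all genes were lower. With MS023+GSK-LSD1 4 of the 5 were called lower, with PRT220, GSK-LSD1 and MC4455 2 each, with MC4491 1 and with MS023 0, where 1 was higher. The part of either in the lower sterol and fatty acid genes was not tested. In bulk samples fewer cells of a type and less RNA per cell cannot be told apart.

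Levels per transcript length ranked INSIG1 at 136, SCD at 159 and FASN at 179 of 20800 genes in DMSO, and ELOVL6 at 11262. Estimated counts per transcript were available for 31 of the 33 genes with at least 2 transcripts kept. Transcript proportions (limma's diffSplice with a Simes test per gene) differed in 12 members with PRT220+GSK-LSD1, where 19.5% of 11425 genes were called, in 8 with PRT220 (16.2%) and in 1 with GSK-LSD1 (5.16%). They differed in 12 with MC4455 (14.7%), 8 with MC4491 (12.2%), 9 with MS023+GSK-LSD1 (13.2%) and 2 with MS023 (4.27%). SREBF1, whose isoforms encode SREBP1a and SREBP1c, was not called in any of the 7.

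LSS, MVD and FDPS were called with PRT220+GSK-LSD1, PRT220, MC4455 and MC4491, and FDPS also with MS023+GSK-LSD1. With PRT220+GSK-LSD1 and with PRT220 these genes remained called under each alternative tried, as did LSS and MVD with MC4455. The other calls were lost under at least 1 alternative. The highest diffSplice adjusted p with MC4491 was 0.127 for LSS, 0.262 for MVD and 0.213 for FDPS. For FDPS it was 0.0514 with MC4455 and 0.113 with MS023+GSK-LSD1. For LSS, transcripts annotated as retained introns took 28.1%, 22.7% and 23.2% of the estimated counts in the PRT220+GSK-LSD1 libraries and 22.9%, 25.4% and 28.1% with PRT220. They took 13.8%, 14.03% and 12.8% with GSK-LSD1 and 13.8%, 13.7% and 12.5% with DMSO. The groups with PRT220 lay above DMSO without overlap and the GSK-LSD1 libraries lay within or beside its range (diffSplice adjusted p = 6.61e-07 with the combination, 3.7e-09 with PRT220 and 0.821 with GSK-LSD1). In MC4455 libraries the share was 20.4%, 22.98% and 20.4% and in MC4491 libraries 22.9%, 20.4% and 15.9%, all above DMSO. The largest of these transcripts, LSS-208, averaged 31.9 ± 3.77 CPM with PRT220+GSK-LSD1, 61.8 ± 1.46 with PRT220 and 21.9 ± 0.58 with GSK-LSD1, against 40.9 ± 3.06 with DMSO (SD, n = 3 each). The main coding transcript, LSS-205, averaged 89.1 ± 5.82 CPM with the combination, 161 ± 26.8 with PRT220 and 139 ± 11.0 with GSK-LSD1, against 254 ± 30.4 with DMSO. For MVD the retained-intron share was 28.9%, 30.1% and 26.8% with the combination and 30.4%, 33.2% and 35.3% with PRT220, against 22.04%, 20.00% and 18.8% with DMSO. For FDPS it was 29.1%, 26.5% and 25.3% with the combination and 24.99%, 27.1% and 29.7% with PRT220, against 18.4%, 18.6% and 19.98% with DMSO. Neither gene's groups overlapped DMSO. Over the 24 members with such transcripts, all 3 shares lay above DMSO in 11 with the combination, against 29.2% of genes. With PRT220 they did so in 6 (17% of genes), with GSK-LSD1 also in 6 (15.1%), with MC4455 in 10 (37%) and with MC4491 in 7 (31.4%). With MS023+GSK-LSD1 it was 9 (22.5%) and with MS023 it was 3 (7.52%). Such shifts were thus common among all genes.

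**Figure D5:**
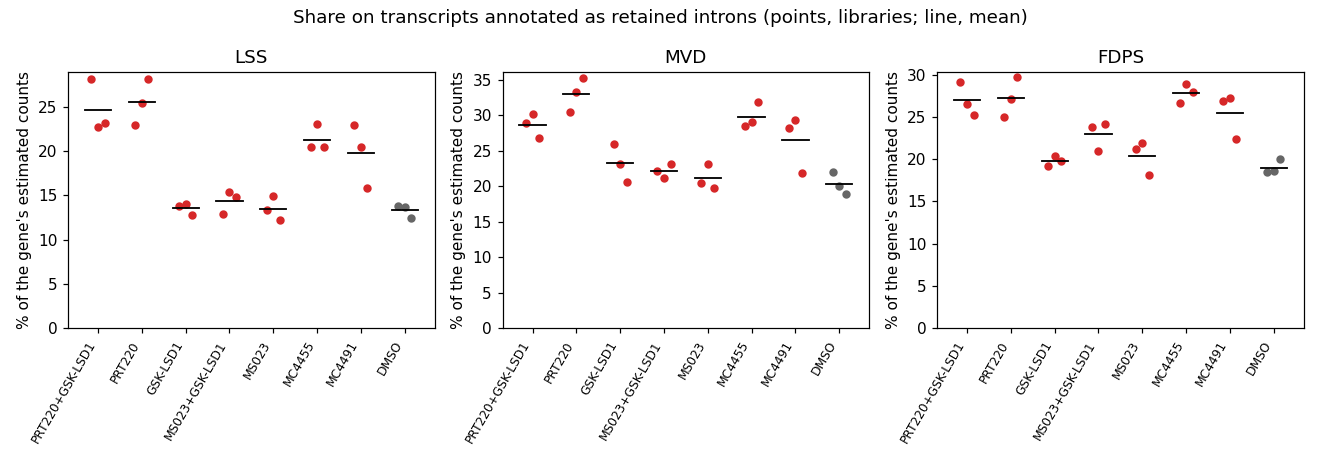
Percent of each gene's estimated counts on transcripts annotated as retained introns, for LSS, MVD and FDPS, in each library (points; line, mean of 3), with DMSO at the right. For LSS the groups given PRT220, MC4455 or MC4491 lie above the DMSO libraries, which run from 12.5% to 13.8%, and the MS023 and GSK-LSD1 groups overlap them.

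ELOVL6, a gene at only 6.04 ± 0.294 CPM in DMSO, was the 1 member whose proportions differed with GSK-LSD1, where 5.16% of genes were called. It was also called with MC4455 (diffSplice adjusted p = 0.0123), MC4491 (0.014) and MS023+GSK-LSD1 (0.0283). Its transcript ELOVL6-201 averaged 0.121 ± 0.210 CPM with PRT220+GSK-LSD1, 2.11 ± 0.41 with PRT220 and 0.146 ± 0.075 with GSK-LSD1, against 2.02 ± 0.28 CPM with DMSO. ELOVL6-202 averaged 3.33 ± 0.57, 4.23 ± 0.21 and 3.55 ± 0.37 CPM in those 3 groups, against 3.93 ± 0.49 CPM with DMSO. ELOVL6-201 was at 0.634, 0 and 0.651 CPM in the MC4455 libraries and at 0.895, 1.55 and 0 CPM in the MC4491 libraries. In the MS023+GSK-LSD1 libraries it was at 0.418, 0.067 and 0.046 CPM. The call with GSK-LSD1 (diffSplice adjusted p = 0.0466) was lost under each of 8 alternatives (a higher count filter, a term for the low-RRP9 libraries, and leaving out each of the 6 libraries compared), with adjusted p between 0.0529 and 0.174. That with PRT220+GSK-LSD1 (adjusted p = 0.0265) ranged from 0.0176 to 0.11 over them. The highest adjusted p over 8 such alternatives was 0.0784 with MC4455, 0.216 with MC4491 and 0.1 with MS023+GSK-LSD1.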

How the data were processed

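Poly(A)-selected, unstranded RNA-seq libraries of MV4-11 cells were sequenced, per the labels' protocols. The authors deposited estimated counts per gene and per transcript; the submitters' processing notes name the build GRCh38 and the tools DESeq2 1.28.1, R 4.0.0, STAR 2.7.3a and Salmon 1.2.1, with no roles or annotation release. Gene names came from a name table, which gave a symbol to 29718 of 38048 genes, and positions and transcript pairing from GENCODE 29 on GRCh38.

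The estimated counts were rounded to whole numbers and fitted in R 4.3.3 with edgeR 4.0.16: edgeR's filter on low counts, TMM scaling, and 1 quasi-likelihood fit of all 24 libraries. The standard error is the absolute log2 fold change divided by the square root of F, intervals use the t distribution, and p-values were adjusted by Benjamini-Hochberg over 16640 genes. Each treatment shares the same 3 DMSO libraries. Transcript proportions were tested with limma 3.58.1 (voom, diffSplice, Simes) on 74228 kept transcripts. Both fits were tested on simulated data. DESeq2 1.42.0, other scalings, filters, subsets and left-out libraries were alternatives. Salmon divides reads between transcripts by a model, which makes transcript shares less certain than gene totals.

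The 33 genes and all lists were chosen with earlier results of these data known. All 33 are accounted for; per-library values are given for the 3 largest changes of each role with PRT220+GSK-LSD1 and for SREBF1, SREBF2, INSIG1, INSIG2, SCD and FASN, and for other genes singled out after their values were seen. From the other lists up to 4 called genes with the largest change and at least 5 CPM could be named, of which some are not reported here. Replicate letters did not pair the libraries. Over 84 pairs with the same letter in different groups the correlation of deviations had a median of 0.00624, and 3 exceeded 0.1.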

Additional observations from a re-analysis of the deposited data

How the results depend on the processing

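No called gene of the 33 changed sign in any of 196 combinations of comparison and setting. Those of MS023 against DMSO and of both interactions had no called gene and could not show such a change. No scaling moved the median of all genes by over 0.1. With PRT220+GSK-LSD1 against DMSO, leaving out each library in turn left 31 lower genes each time. DESeq2 gave 2 lower genes for MS023 against DMSO, and leaving out 1 library gave 0 to 1 (1 without DMSO replicate C). For MS023+GSK-LSD1 against GSK-LSD1 the 9 lower genes became 3 to 7: 4 without GSK-LSD1 replicate A or C or MS023+GSK-LSD1 replicate A, and 3 without GSK-LSD1 replicate B or MS023+GSK-LSD1 replicate C. The replicate letter as a block, although the letters did not pair the libraries, gave 6 there and 31 for PRT220+GSK-LSD1 against DMSO, and changed no count by over 1.5 times. The block was not applied to transcript proportions.

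The counts of members with changed transcript proportions were less stable. A filter of 50 counts gave 0 for GSK-LSD1, and a term for the low-RRP9 libraries gave 5 for MS023. Leaving out 1 library gave 0 to 1 for GSK-LSD1, 0 to 2 for MS023 (0 without MS023 replicate A or DMSO replicate A), 4 to 8 for MS023+GSK-LSD1 (4 without its replicate C), 5 to 12 for MC4455 (5 without its replicate B) and 5 to 9 for MC4491 (5 without its replicate A or DMSO replicate C). The cause was not tested. Estimates of low transcripts, as in ELOVL6, rest on few counts. The interactions were measured with 3 libraries a group, which limits what departure can be seen.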
